A study of Arabidopsis thaliana with 3 samples.

Results

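Cytochrome P450 genes outside the CYP78A subfamily were examined for regions bound by the histone deacetylase HDA6 in Arabidopsis thaliana seedlings. Members were the nuclear protein-coding genes whose symbol is CYP, a number, 1 or 2 letters and a number, without the 6 CYP78A genes. This rule gave 213 of the 27444 nuclear protein-coding genes, in 8 clans, 39 families and 59 subfamilies. Other genes that carry a CYP symbol, such as the cyclophilins, fall outside it. The plants were of the Col-0 ecotype, carried HDA6pro::HDA6:GFP, in which the HDA6 promoter drives HDA6 fused to GFP, a fluorescent protein (HDA6-GFP), and were harvested whole after 14 days in long days. The series has 2 HDA6-GFP ChIP samples and 1 input sample from the same kind of plants. The ChIP samples were made with an anti-GFP antibody from pools of at least 5 immunoprecipitations. The label of the input sample also lists the antibody, and the sample was taken as input after its title. The deposited data are positions on the TAIR10 build, 1 list for the ChIP and 1 for the input, without scores or counts and without separation of the replicates. No value below therefore has a replicate error, read depth is unknown, and no test over samples could be made. Whether the plants also held their own HDA6 protein is not given in the labels, and whole seedlings mix all organs present at that age.

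P450 enzymes carry a heme group and insert oxygen into small molecules, usually with electrons from a reductase in the membrane of the endoplasmic reticulum. In plants they make and break hormones, pigments, defence compounds, sterols and the building blocks of the cuticle and of lignin. They are classed by sequence into clans, numbered families and lettered subfamilies, and many subfamilies lie in tandem, as neighbouring copies on a chromosome. Clan 71 holds most enzymes of specialised metabolism, and the other clans hold many enzymes of hormone, sterol and fatty acid pathways. HDA6 is a histone deacetylase, an enzyme that strips acetyl marks from histones, and its known roles include the silencing of transposons and of transgenes.

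HDA6-GFP regions were found at 16 of the 213 P450 genes, or 7.51% (95% Wilson interval 4.68 to 11.9%, counting error only), counting regions in the annotated gene body or within 1 kb of it. Of all nuclear protein-coding genes, 8.56% had such a region, so the share among P450 genes was near the background. The region lay in the gene body for 14 P450 genes, or 6.57% (95% Wilson interval 3.96 to 10.7%), against 5.80% of all nuclear protein-coding genes. Among the 170 P450 genes in the middle 80% of the members' lengths, 7.65% had a region in the body or within 1 kb, and 7.22% of all genes of the same lengths did. For the gene body alone these shares were 6.47% and 4.70%. In the chromosome arms, over 3 Mb from a centromere midpoint, 11 of the 162 P450 genes in that length range had a region in the body, or 6.79% (95% Wilson interval 3.83 to 11.7%). Of arm protein-coding genes of the same lengths 4.09% did, a share inside the lower end of that interval. The 16 genes were spread over 5 clans, 11 families and 13 subfamilies, and the other 28 families had no member with a region. Many families have few members, and no such spread was worked out for other genes, so nothing is read from these counts.

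Clan 71, with 136 members, had 11 genes with a region, or 8.09% (95% Wilson interval 4.58 to 13.9%). The 77 members of all other clans together had 5, or 6.49% (2.81 to 14.3%), an interval that overlaps that of clan 71. Clan 72 had 2 of 18, clan 85 had 1 of 20, clan 86, which holds fatty acid hydroxylases, had 1 of 31, and clan 710 had 1 of 4. The 2 members of clan 97 and the genes CYP51G1 and CYP711A1, each the lone member of its clan, had none, which such small numbers cannot set apart from the background of 8.56%. Within clan 71 the family CYP71 had 3 of 48, CYP705 had 3 of 24 and CYP81 had 2 of 16. The largest families without a region were CYP96 (0 of 12), CYP86 (0 of 10), CYP72 (0 of 9), CYP76 (0 of 8) and CYP706 (0 of 7). With a count of 0, the 95% Wilson interval still reaches 24.2% in CYP96 and 35.4% in CYP706. The subfamily CYP71B, the largest with 32 members, had 1 gene with a region (95% Wilson interval 0.554 to 15.7%). CYP71A had 2 of 16 (3.50 to 36.0%). The 2 intervals overlap, and both hold the background of 8.56%.

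**Figure D1:**
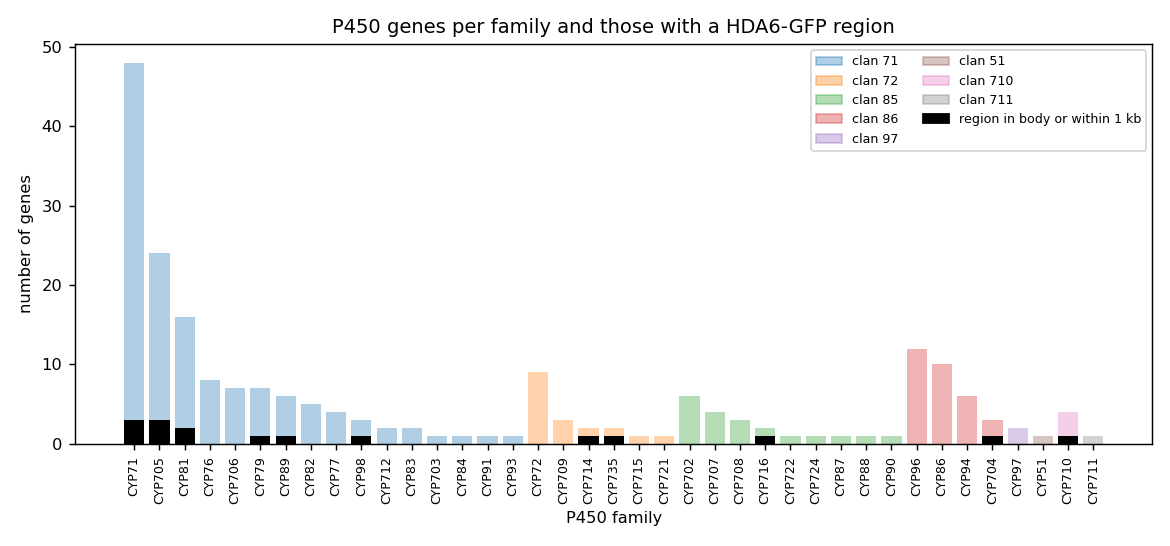
Number of P450 genes in each family (vertical axis, genes), coloured by clan, with the genes that have a HDA6-GFP region in the body or within 1 kb in black. The black parts are short in every family: the most is 3 genes, in CYP71 and in CYP705, and 28 of the 39 families, many of them small, have none.

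Among the 13 listed terpenoid P450 genes 3 had a region, a count too small to set against the 8.56% of all nuclear protein-coding genes. The 3 genes act on triterpenes, as do CYP705A5, CYP708A2 and CYP716A1 of the same list, which had none. CYP705A1 (AT4G15330), which cleaves the triterpene arabidiol, held a region of 344 bp on chromosome 4, 8752572 to 8752915. CYP71A16 (AT5G42590), marneral oxidase, held a region of 245 bp on chromosome 5, 17033262 to 17033506. CYP716A2 (AT5G36140), of a family that oxidises triterpenes, held a region of 294 bp on chromosome 5, 14212903 to 14213196, which covered 26.3% of its body, the shortest of all members at 1120 bp. The adjacent genes that make the triterpene skeletons differed in this respect. PEN3, an oxidosqualene cyclase gene next to CYP716A2, held a region of its own (chromosome 5, 14225088 to 14225380). That region lies within 3 Mb of a centromere midpoint, and 20.1% of all protein-coding genes within that distance had a region. PEN1, the arabidiol synthase gene next to CYP705A1, had none within 1 kb, its nearest region being the one in CYP705A1, 1525 bp away. MRN1, the marneral synthase gene, had its nearest region 19947 bp away, which was the one in CYP71A16. CYP705A12, a member outside the list that lies next to CYP71A16, was 7901 bp from that same region. The thalianol genes THAS1, CYP708A2 and CYP705A5 lay 16303, 30143 and 41260 bp from a region. These partner genes were chosen after the values at the P450 genes were seen. The remaining terpenoid P450 genes without a region were CYP76C1 to CYP76C4, CYP82G1, CYP706A3 and CYP71B31.

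Hormone pathways had a region at 2 genes. CYP735A2 (AT1G67110), which hydroxylates cytokinins to give trans-zeatin types, held a region of 293 bp on chromosome 1, 25064513 to 25064805. Its paralog CYP735A1 lay 46004 bp from the nearest region. CYP714A1 (AT5G24910), which inactivates gibberellins, held a region of 218 bp on chromosome 5, 8568223 to 8568440. The count was 1 of 5 for gibberellin genes and 1 of 4 for cytokinin and strigolactone genes. Brassinosteroid genes (0 of 9), abscisic acid 8'-hydroxylase genes CYP707A1 to CYP707A4 (0 of 4) and jasmonate and oxylipin genes (0 of 5) had none. Lists this short cannot be set apart from each other or from the 8.56% of all nuclear protein-coding genes with a region. Distances within the brassinosteroid list ran from 2482 bp at BR6OX1 to 122950 bp at ROT3, both P450 genes listed under other symbols. CYP90D1 and BR6OX2 lay 8384 and 9644 bp from a region, and DWF4 and CPD 44643 and 52038 bp.

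Defence, phenolic and sterol pathways each had a region at 1 listed gene. CYP81F4 (AT4G37410), which modifies the indole ring of indole glucosinolates, held a region of 285 bp on chromosome 4, 17590923 to 17591207. The gene AT4G37409 is annotated over the same stretch, so the region cannot be assigned to either of them alone. The other 15 of the 16 glucosinolate and camalexin genes had none, among them CYP79B2, CYP79B3, CYP83B1 and PAD3. CYP79B2, which makes the oxime precursor of indole glucosinolates and camalexin, lay 3055 bp from a region, and CYP83B1 lay 258599 bp from one. CYP98A9 (AT1G74550), which with CYP98A8 hydroxylates phenolic conjugates of spermidine in pollen, held a region of 226 bp on chromosome 1, 28016081 to 28016306 (1 of 7 phenylpropanoid and flavonoid genes). CYP710A4 (AT2G28860), of the sterol C-22 desaturase family, held 2 regions on chromosome 2, of 275 bp at 12388287 to 12388561 and of 202 bp at 12388656 to 12388857 (1 of 8 sterol and carotenoid genes). Genes of cutin, suberin, wax and sporopollenin had no region (0 of 11), and CYP704B1, a sporopollenin gene, had the most distant nearest region of all members, at 352397 bp. The counts of these lists are too small to set apart from the 8.56% of all nuclear protein-coding genes.

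Over the 10 pathway lists, 8 of 82 genes had a region, or 9.76%, against 8.56% of all nuclear protein-coding genes. Of the 82, 67 are members and 15 are P450 genes listed under other symbols, and all 8 genes with a region are members. Among the 146 members in no list, 8 had a region, or 5.48%. The lists were chosen with earlier results of these data known, so nothing is read from the difference between listed and unlisted genes.

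For the other 8 genes the substrate is less well known, and their families are given as background. CYP79C2 (AT1G58260) belongs to a family whose known members turn amino acids into oximes. It had the widest region at any P450 gene, 562 bp on chromosome 1, 21607557 to 21608118, of which 78.1% lay in the body, and a further region of 298 bp at 21608493 to 21608790, in the flank 498 bp from the body. Of all regions in protein-coding gene bodies of the chromosome arms, 5.05% were at least as wide as 562 bp. CYP705A32 (AT3G20950) held 2 regions on chromosome 3, of 391 bp at 7343225 to 7343615 and of 383 bp at 7344038 to 7344420. CYP705A33 (AT3G20960) had no region in its body and counted only because the second region of CYP705A32 lies 841 bp away from it. CYP705A32, CYP705A33 and CYP705A1 were 3 of the 5 members with a region at least as wide as the nuclear median of 337 bp, the others being CYP79C2 and CYP71A20. These 5 make up 2.35% of the P450 genes, and 3.21% of all nuclear protein-coding genes had a region of that width.

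CYP71A20 (AT4G13310) held a region of 339 bp on chromosome 4, 7750451 to 7750789, and CYP71B14 (AT5G25180) held a region of 212 bp on chromosome 5, 8695505 to 8695716. CYP89A6 (AT1G64940), of the family that includes the chlorophyll catabolite enzyme CYP89A9, held a region of 259 bp on chromosome 1, 24123800 to 24124058, whose lower end lay 11 bp inside the body. CYP81G1 (AT5G67310) held a region of 234 bp on chromosome 5, 26855574 to 26855807. That stretch also lies in the annotated bodies of MYBR1, a stress-related MYB factor, and of the antisense RNA gene AT5G09865. CYP704A1 (AT2G44890), of a family that hydroxylates fatty acids, had no region in its body. Its region of 246 bp, on chromosome 2, 18507969 to 18508214, lay 57 bp away, inside AHG11, which encodes an organelle RNA-editing factor, and the long non-coding RNA gene AT2G09570. At CYP81F4, CYP81G1, CYP704A1 and CYP705A33 every region counted thus overlapped the body of another annotated gene, and 12 P450 genes had a region in no other gene body, or 5.63%, against 5.43% of all nuclear protein-coding genes.

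**Figure D2:**
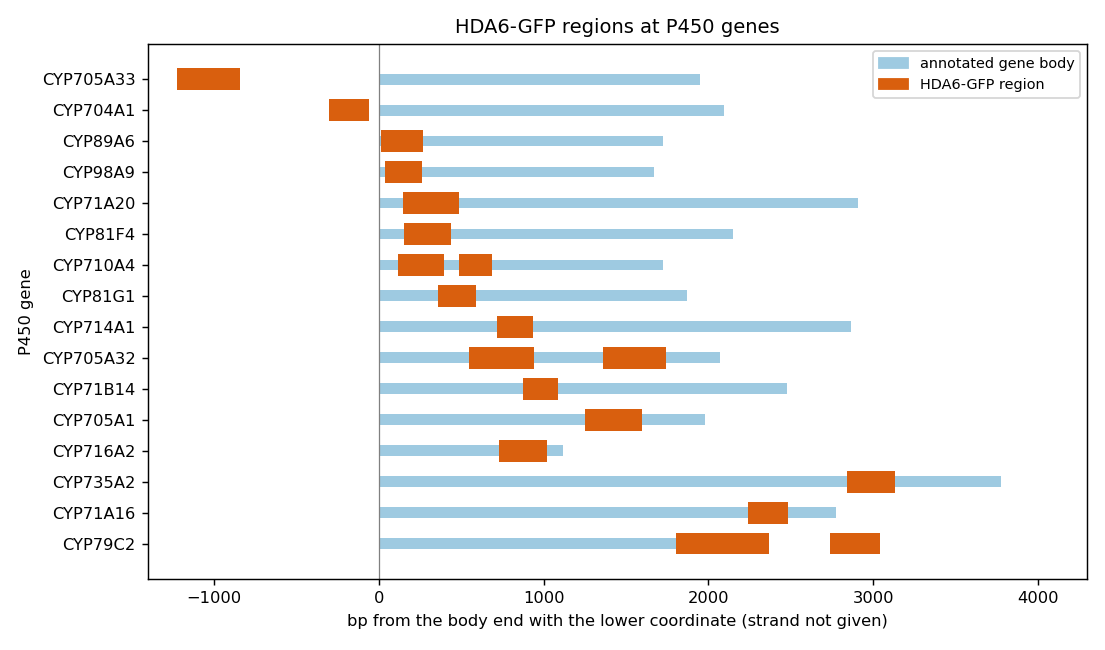
Position of each HDA6-GFP region (orange) along the annotated body (blue) of the 16 P450 genes with a region, in bp from the body end with the lower coordinate. Strand was not given, so the lower end can be the start or the end of transcription; regions lie at many places along the body, and CYP705A33 and CYP704A1 have theirs outside it.

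The 18 distinct regions at P450 genes were short, from 202 to 562 bp with a median of 280 bp. The 1208 regions in arm protein-coding gene bodies had a median of 294 bp. The 2 sets are not alike. The 18 also include the region at CYP716A2, near a centromere, and regions outside the P450 body at CYP704A1 and CYP79C2. The 16 regions in P450 bodies also had a median of 280 bp. CYP79C2, CYP705A32 and CYP710A4 had 2 regions each. Of the 16 regions with their midpoint in a P450 body, 15 lay wholly inside the body. Midpoints were from 140 to 980.5 bp from the nearer body end, with a median of 445.25 bp, against 497.5 bp over the 1628 midpoints in any protein-coding body. In the outermost 25% at either end of the body lay 10 of the 16 midpoints, or 62.5%, against 45.9% for all protein-coding bodies. The 16 midpoints come from 14 genes and are too few to set this share apart from that of all genes.

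Input intervals covered from 92.9 to 100% of every P450 gene body, so this coverage could not separate genes with a region from those without. All 18 regions overlapped an input interval, and input intervals covered from 92.3 to 100% of each region. The widest input interval touching the region was at least 1000 bp at 16 of the 18. Of regions in arm protein-coding gene bodies 66.5% had one that wide. The median widths of that interval were 1430.5 bp at the 18 regions and 1359.5 bp at those in arm bodies. The 18 regions are not limited to arm gene bodies, as the others are, and these differences were not tested. Input intervals covered a median of 98.8% of the body both in the 16 genes with a region and in the 197 without. The widest input interval touching the body had a median of 1744.5 bp in genes with a region, range 1062 to 3100 bp, and of 1718 bp in those without, range 652 to 6307 bp. Median gene lengths were 2082 bp with a region and 2052 bp without. The ranges of genes with and without a region overlapped in all 3 measures.

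Tandem clusters were set as 2 or more members of a family, consecutive on a chromosome with at most 1 other protein-coding gene between neighbours. This gave 34 clusters with 114 members, of 2 to 9 genes each. A region was found for 9 of the 114 tandem members, or 7.89% (95% Wilson interval 4.21 to 14.3%), and for 7 of the 99 other members, or 7.07% (3.47 to 13.9%). Both shares were near the 8.56% of all nuclear protein-coding genes. Of the 34 clusters, 8 had a region, and in 7 of those 8 it was at a lone member. No such count was made for tandem clusters of other genes, so nothing is read from it.

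The copies in the clusters with a region are described by their distance from it. CYP98A8, the partner of CYP98A9 in pollen, lay 1032 bp from the region in CYP98A9. CYP714A2, a further gibberellin-modifying gene, lay 1411 bp from the region in CYP714A1. CYP89A7 and CYP89A5, on either side of CYP89A6, lay 1024 and 3448 bp from the nearest region. CYP710A3 lay 3236 bp, CYP81F3 4481 bp and CYP71A19 7316 bp from a region, beside CYP710A4, CYP81F4 and CYP71A20. In the CYP705A cluster of chromosome 3, CYP705A30 lay 1522 bp and CYP705A28 7212 bp from a region. In that of chromosome 4, CYP705A2, CYP705A3 and CYP705A4 lay 9917, 17265 and 34709 bp from a region, and CYP705A1 held the only one. Together these 8 clusters hold 21 members, of which 12 had no region in the body or within 1 kb. Since 8.56% of all nuclear protein-coding genes have a region, most neighbours of any gene have none, and nothing about tandem copies is read from this count. How reads that match several near-identical copies were treated is not given in the sources used here, so which copy a region belongs to is uncertain, and its part in these counts was not tested.

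**Figure D3:**
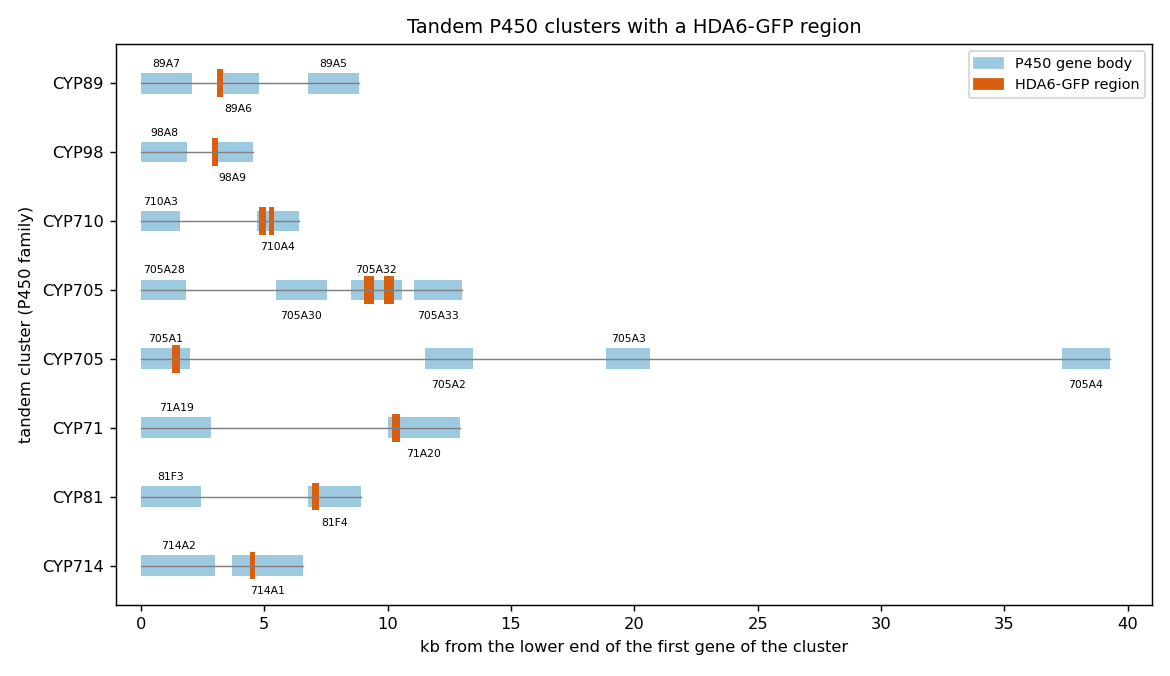
The 8 tandem P450 clusters that hold a HDA6-GFP region, drawn to scale in kb from the lower end of the first gene, with P450 bodies in blue and regions in orange; other genes are not drawn. Each cluster has its regions within the body of a single P450 gene, and CYP705A33 is counted through the region in CYP705A32.

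The 6 clusters of 5 or more genes, with 43 members, had no region. By the rule of 3, a rough 95% limit for counting error that is not a Wilson interval, this allows a share of up to 6.98%. That limit is about equal to the 7.04% of arm protein-coding genes with a region, so no deficit is read from it. They were the CYP71B clusters of 9 and 7 genes, the CYP705A cluster of 7 and the CYP71A cluster of 6 on chromosome 3, the CYP72A cluster of 8 on that chromosome, and the CYP81 cluster of 6 on chromosome 4. Their members lay from 2149 to 90068 bp from the nearest region, with a median of 24183 bp. In the 28 clusters of 2 to 4 genes, 9 of 71 members had a region, or 12.7%. The share was 8.56% of all nuclear protein-coding genes and 7.04% of those in the arms. Input intervals covered a median of 98.9% of the bodies in the larger clusters and of 98.4% in the smaller. The split by cluster size was chosen after the values were seen, and neighbours in a cluster are not independent.

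A region lay within 2 kb of 24 members, or 11.3%, against 11.5% of all nuclear protein-coding genes. The nearest region lay between 1 and 2 kb away for 8 members, and for 5 of them it lay in the body of another P450 gene. These were CYP89A7, CYP98A8, CYP714A2 and CYP705A30, given above, and CYP77A6, a cutin gene, at 1404 bp. The region near CYP77A6 (chromosome 3, 3300164 to 3300483) lay in UNE9, which is CYP77A7 under another symbol. The other 3 were CYP96A8 at 1207 bp, CYP81D7 at 1490 bp and CYP722A1 at 1983 bp. Just inside the limit, CYP705A33 had its region at 841 bp. Of the 213 members, 114 lie in tandem clusters, so many have a P450 gene as neighbour. The count of 5 of 8 was not made over all genes, and nothing about the members is read from it.

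Few P450 genes lie near centromeres. Of the 213 members, 13, or 6.10%, lay within 3 Mb of a centromere midpoint, against 11.6% of all nuclear protein-coding genes. There CYP716A2 alone had a region (1 of 13, or 7.69%, 95% Wilson interval 1.37 to 33.3%). Of all protein-coding genes within that distance 20.1% had one, a share inside that interval. In the arms 15 of 200 members had a region, or 7.50%, against 7.04% of arm protein-coding genes. On chromosome 1, 4 of 43 members had a region, or 9.30%, against 7.08% of its protein-coding genes. On chromosome 2 it was 2 of 32, or 6.25%, against 12.6%. On chromosome 3, which holds most of the large tandem clusters, it was 2 of 58, or 3.45%, against 8.19%. On chromosome 4 it was 3 of 42, or 7.14%, against 9.55%, and on chromosome 5 it was 5 of 38, or 13.2%, against 7.16%. The share of P450 genes was thus above that of all genes on chromosomes 1 and 5 and below it on the other 3, and the counts per chromosome are too small to set any of them apart.

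The distance to the nearest region was close to that of all genes at short range and smaller beyond about 10 kb. Its median was 16927 bp over the P450 genes and 20302.5 bp over all nuclear protein-coding genes. In the arms alone the medians were 17343.5 and 22940 bp. A region lay within 5 kb of 20.7% of P450 genes and of 20.1% of all genes, and within 20 kb of 56.3% and 49.6%. Neighbouring members share their nearest region, so the 213 distances are not independent, and the difference in medians was not tested.

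**Figure D4:**
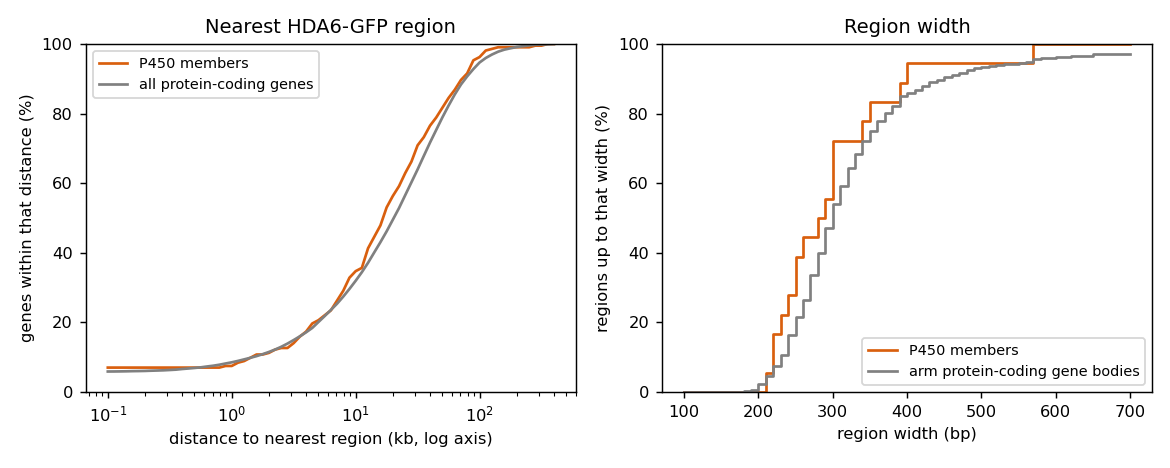
Left, share of genes (%) with a HDA6-GFP region within a given distance (kb, log axis), for the 213 P450 genes and all 27444 nuclear protein-coding genes; right, share of regions (%) up to a given width (bp), for the 18 regions at P450 genes and the 1208 regions in arm protein-coding gene bodies. The distance curves run close together up to 10 kb, and the medians of the widths are 280 and 294 bp.

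Related genes outside the rule were few. Of the 16 P450 genes listed under another symbol, UNE9 alone had a region. Of 17 P450 pseudogenes, named by a final P in the symbol or annotated as transcribed pseudogenes, 2 had a region. These were CYP79A3P (chromosome 5, 14050847 to 14051094) and CYP79A4P (chromosome 5, 14056522 to 14056953), which are close neighbours and are annotated as protein-coding genes. Both regions lie within 3 Mb of a centromere midpoint, and 20.1% of all protein-coding genes within that distance had a region. Of the 6 CYP78A genes, 4 had a region. The share over all nuclear protein-coding genes was 8.56%, and the first 2 of these counts are too small to set apart from it. The CYP78A count was not tested against it, and nothing is read from it, since these genes were left out with earlier results known.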

How the data were processed

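The authors deposited 2 lists of positions, without values. Bowtie, SICER and the TAIR10 build are named in the submitters' processing notes. Whether and how replicates were pooled, and the versions, settings and filters, are not stated there. The ChIP list was taken as pooled because its name gives no replicate number. Starts are printed counted from 1.

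Genes were matched by symbol in a RefSeq table (assembly TAIR10.1, treated as equal to TAIR10 for the nuclear chromosomes). No gene coordinates are printed. The table gives no strand and no sequence was used here. A gene had a region if the body or the 1-kb flanks overlapped a region by at least 1 bp. Clans, pathway lists and members were chosen with earlier results of these data known. CYP91 was placed in clan 71, since its member CYP91A2 has the synonym CYP81F1. Arms lie over 3 Mb from the centromere midpoint, set for chromosomes 1 to 5 at 15, 3.6, 14, 4 and 11.7 Mb.

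Named genes are all members with a region, their tandem neighbours, members within 2 kb of a region and the pathway lists. Genes named outside this rule were chosen after their values were seen: the triterpene partner genes, the distances of listed genes without a region, and the P450 pseudogenes. Shares are set beside those of all nuclear protein-coding genes, with no test. Python 3.11.15, pandas 2.3.3 and scipy 1.17.1 were used. On simulated data, regions in the body or flank were assigned correctly for 100% of 2000 genes.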

Additional observations from a re-analysis of the deposited data

How the results depend on the processing

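The count of 16 P450 genes stayed between 12 and 24 except with the wider regions, and background below is the share of all nuclear protein-coding genes. It was 14 with the gene body alone (6.57%, background 5.80%) and 15 with a 500-bp flank (7.04%, background 6.94%). A 2-kb flank gave 24 (11.3%, background 11.5%). Region midpoints gave 15 (7.04%, background 7.79%), and an overlap of at least 100 bp gave 16 (7.51%, background 8.26%). In arms over 2, 3 or 4 Mb from a centromere midpoint it was 16 of 211, 15 of 200 and 12 of 171. These are 7.58, 7.50 and 7.02%, against 7.29, 7.04 and 6.59% of arm genes. P450 genes under other symbols added gave 17 of 229 (7.42%). A further 2 settings were chosen after seeing the data: regions in no other gene body (12, background 5.43%) and CYP78A genes added (20 of 219). With only regions at least as wide as the nuclear median the count was 5, or 2.35%, against 3.21% of all genes. All 5 were in clan 71, and clans 72, 85, 86 and 710 then had 0. With a 2-kb flank clans 85 and 86 each had 2, and with the gene body alone clan 86 had 0. Tandem members with a region numbered 6 of 99 (6.06%) with no other gene between neighbours and 11 of 125 (8.8%) with up to 5. Of all nuclear protein-coding genes 8.56% had a region. With the wider regions they numbered 4 of 114 (3.51%), against 3.21% of all genes. No paired analysis was possible because the ChIP list does not separate the replicates, and for the same reason no replicate could be left out. Without read counts or values per region, binding strength at P450 genes could not be compared.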
